A study of Mus musculus with 39 samples.

Results

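KAL-1 is an aqueous ethno-botanical formulation that was given to mice together with a fattening diet. The arrays described here compare epididymal adipose tissue of mice on that diet with KAL-1 at 20 µg (HF20) and without it (HFC) at weeks 3, 9, 15 and 18, which makes 8 of the 39 arrays of the series, chosen by the labels for diet, dose and week. The C57BL/6J mice entered the study after weaning at 3 to 4 weeks of age, 30 to a group, 5 of each group were killed every 3 weeks, and weeks count from day 14 of feeding. Both groups ate the diet with raised sucrose and 60% of calories from fat, and the controls received no KAL-1. For comparison, HF5 and HF75 mice ate the same diet with 5 and 75 µg of KAL-1, and LFC mice a diet with 10% of calories from fat and no KAL-1. The series is described as having biological replicates, but each diet and week used here is 1 array, of 1 animal or a pool as far as is known, so the spread between the 4 pairs holds animal, week and array differences together. Week 12 was left out because its HFC array had 10531 spots marked as outliers, and week 6 because its HFC array carried genes of another fat depot than its HF20 array.

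Epididymal fat is a visceral depot that stores triglyceride and enlarges quickly on a fattening diet. Its adipocytes secrete leptin and adiponectin, take up and break down branched-chain amino acids and burn or release fatty acids, and they are surrounded by endothelium, progenitors, macrophages and other immune cells, under a mesothelial sheet and next to the epididymis. Immediate early genes such as Fos are transcribed within minutes of a stimulus, and cytokine and chemokine genes such as Il6 follow them in many cell types. In whole tissue, fewer cells of a type and less RNA per cell cannot be told apart.

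A level here is the log2 processed signal of a probe minus the 75th percentile of the log2 signals of its array, and a difference is HF20 minus HFC of the same week. On the 8 arrays 61.0 to 77.2% of spots were well above background and 29 to 91 were marked as outliers. The adipocyte list (18 genes, among them Adipoq and Fabp4) had a median level of 2.16 to 5.69, and the subcutaneous depot list (6 genes) lay at -8.03 to -5.62. The adipocyte median was thus high and the subcutaneous median low on every array. Of the 6 subcutaneous genes 1 to 4 were well above background per array. Hoxc9 among them was at -0.38 to 0.93 on the 6 arrays other than HFC week 3 and HF20 week 18. The visceral depot list (6 genes) was at -3.19 on the HF20 array of week 3 and at -1.66 to 0.88 on the other 7. The scanner saturated on the brightest probes, with 191 to 623 saturated spots per array, and Fabp4 and Dcn were saturated on all 8 arrays, so that no difference is given for them. An array of each group stood apart from the other 6, the HFC array of week 3 and the HF20 array of week 18. Deviations from the group mean correlated across probes at r = 0.69 between these arrays of different group and week, against 0.46 and 0.52 between the HFC and HF20 arrays of week 9 and of week 15, and -0.15 and -0.19 at weeks 3 and 18. Differences are therefore given by week, and the main ones also without these arrays, which sets the HFC arrays of weeks 9, 15 and 18 against the HF20 arrays of weeks 3, 9 and 15 and so gives up the pairing by week.

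No gene passed the test of HF20 against HFC. Of 28255 probes tested by limma with the week as a block, 0 (0%) had an adjusted p under 0.05, and the smallest adjusted p was 0.99994. At an unadjusted p under 0.05, 153 probes were higher (0.541%) and 132 lower (0.467%), together 285. HF20 was above HFC in all 4 weeks for 558 probes (1.97%) and below it for 821 (2.91%), and the 4 arrays of one group all lay above the 4 of the other for 44 probes higher in HF20 (0.156%) and 66 lower (0.234%). With 4 pairs an exact sign permutation test of a single gene cannot go below p = 0.125. Without the HFC week 3 and HF20 week 18 arrays and with no week block, 0 probes passed and 262 had an unadjusted p under 0.05.

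The differences of weeks 3 and 18 were large and ran in opposite directions. Their SD across probes was 1.33 at week 3 and 1.42 at week 18, against 0.80 at week 9 and 0.69 at week 15. A difference of more than 1 on the log2 scale was seen for 9394 probes at week 3, 4222 at week 9, 2892 at week 15 and 12083 at week 18. Across probes, which are not independent replicates, the differences of weeks 3 and 18 correlated at r = -0.67, and 42.1% of probes were higher in HF20 at week 3 and lower at week 18 while 36.7% did the reverse. The differences of weeks 9 and 15, which do not involve the arrays that stood apart, correlated at r = -0.22. Of the 28 lists of tissue processes, 14 had a median below 0 at week 3 and above 0 at week 18, 9 the reverse, and 3 one sign in all 4 weeks.

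**Figure D1:**
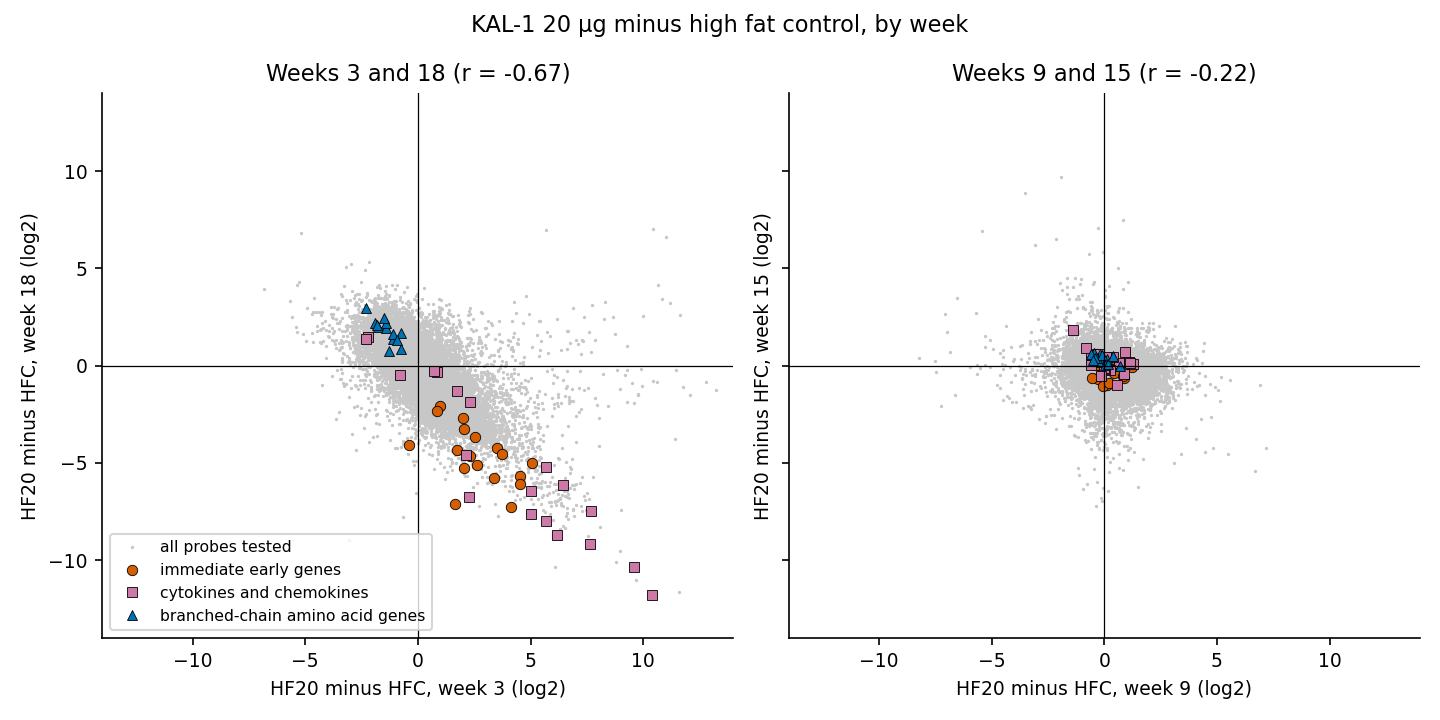
HF20 minus HFC (log2) of each probe tested at week 3 against week 18 (left) and at week 9 against week 15 (right), with 18 immediate early genes, 19 cytokine and chemokine genes and 13 genes of branched-chain amino acid breakdown marked. The left cloud runs from upper left to lower right (r = -0.67), with Il6 at its end (10.40 and -11.81), whereas the marked genes lie near 0 on the right.

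Among the 28 lists of tissue processes, immediate early genes and cytokine genes made the largest of these opposite differences. The median level of the immediate early list was 1.65 on the HFC array of week 3 and -0.39 on the HF20 array of week 18, and 4.72 to 5.37 on the other 6. The median difference of its 18 tested genes was 2.43 at week 3, -0.11 at week 9, -0.23 at week 15 and -4.60 at week 18. Of the 18, 17 were higher in HF20 at week 3 and lower at week 18, as were 42.1% of all probes. Over the 4 weeks the median was -0.51 (all probes tested: -0.03), 0 genes were above or below HFC in all 4 weeks, and the median was -0.16 without the arrays that stood apart. The 8 arrays of the other doses in the same weeks lay at 4.67 to 5.22. Low levels outside the comparison were 1.26 on the LFC array of week 3, which shared a slide with the HFC array of week 3 and had 16431 outlier spots, and 0.53 and 0.24 on the HF20 arrays of weeks 6 and 12.

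Fos, a subunit of the AP-1 transcription factor, was at 0.72, 4.89, 5.37 and 4.75 on the HFC arrays of weeks 3, 9, 15 and 18 and at 4.86, 4.72, 4.84 and -2.55 on the HF20 arrays. The groups overlapped, with 1 low array in each. Its mean difference was -0.96 ± 1.72 (SE, n = 4 pairs, adjusted p = 0.99994 by limma). Egr1, a zinc finger factor induced by serum and stress, was at -0.64 on the HF20 array of week 18 and at 4.62 to 6.47 on the other 7, of which the HFC array of week 15 was saturated. Zfp36, which speeds the decay of cytokine mRNA, was at 1.31 on the HFC array of week 3 and 0.73 on the HF20 array of week 18 and at 5.05 to 6.11 on the others.

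Il6, which encodes interleukin 6, was at -5.55, 5.20, 6.00 and 5.35 on the HFC arrays of weeks 3, 9, 15 and 18 and at 4.85, 5.87, 6.13 and -6.46 on the HF20 arrays. Its differences of 10.40 and -11.81 at weeks 3 and 18 stood beside 0.67 and 0.13 at weeks 9 and 15, and the mean was -0.15 ± 3.29 (SE, n = 4 pairs). The HFC array of week 15 was saturated for Il6. Cxcl1, a chemokine for neutrophils, was at -1.42 and -3.98 on the low arrays and at 4.68 to 5.70 on the others. Tnf, the tumour necrosis factor gene, was at -6.23 and -5.12 on the low arrays and at 1.46 to 3.79 on the others. The cytokine list (19 genes tested) had median differences of 5.00, 0.08, 0.14 and -6.12 in the 4 weeks. Its median was -0.11 over all of them and 0.06 without the arrays that stood apart. Of its 19 genes 16 were higher in HF20 at week 3 and lower at week 18, as were 42.1% of all probes. Il18 and the chemokine receptor gene Ccr2 ran the other way, and Ccr2 differed by -2.28 at week 3 and 1.38 at week 18.

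The upstream sequences of the genes that moved together are shown for Il6, Cxcl1 and Zfp36, as the 250 bases before the start site on build GRCm38.p6 (RefSeq), with matches to the NF-kappaB site (Il6 and Cxcl1) and to the CArG box that serum response factor binds (Zfp36) in capitals.
Il6, chr5:30012864-30013113, + strand: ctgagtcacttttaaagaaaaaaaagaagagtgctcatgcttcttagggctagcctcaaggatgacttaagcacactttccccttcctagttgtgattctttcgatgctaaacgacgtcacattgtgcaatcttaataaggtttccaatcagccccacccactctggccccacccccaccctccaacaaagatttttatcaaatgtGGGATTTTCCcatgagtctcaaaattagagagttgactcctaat
Cxcl1, chr5:90890995-90891244, + strand: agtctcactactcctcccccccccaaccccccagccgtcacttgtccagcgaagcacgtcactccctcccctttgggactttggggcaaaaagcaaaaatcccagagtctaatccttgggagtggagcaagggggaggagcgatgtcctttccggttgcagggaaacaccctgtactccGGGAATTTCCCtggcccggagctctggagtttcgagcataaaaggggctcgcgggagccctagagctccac
Zfp36, chr7:28379229-28379478, - strand: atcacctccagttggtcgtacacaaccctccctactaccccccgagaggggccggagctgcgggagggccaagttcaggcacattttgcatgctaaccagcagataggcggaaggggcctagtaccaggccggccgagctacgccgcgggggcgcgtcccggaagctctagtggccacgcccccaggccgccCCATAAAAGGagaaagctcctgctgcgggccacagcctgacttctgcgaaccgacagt
On both strands the NF-kappaB site was found upstream of 7.01% of 27025 genes, of 5 of 13 cytokine genes and of 5 of 16 immediate early genes with a sequence. In Cxcl1 a pair of matches overlap. The CArG box was found upstream of 1.4% of all genes, 1 of the 16 immediate early genes and 0 of the 13 cytokine genes. Neither was found upstream of the 11 branched-chain amino acid genes with a sequence. These matches describe the letters of the window and were not tested as sites.

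**Figure D2:**
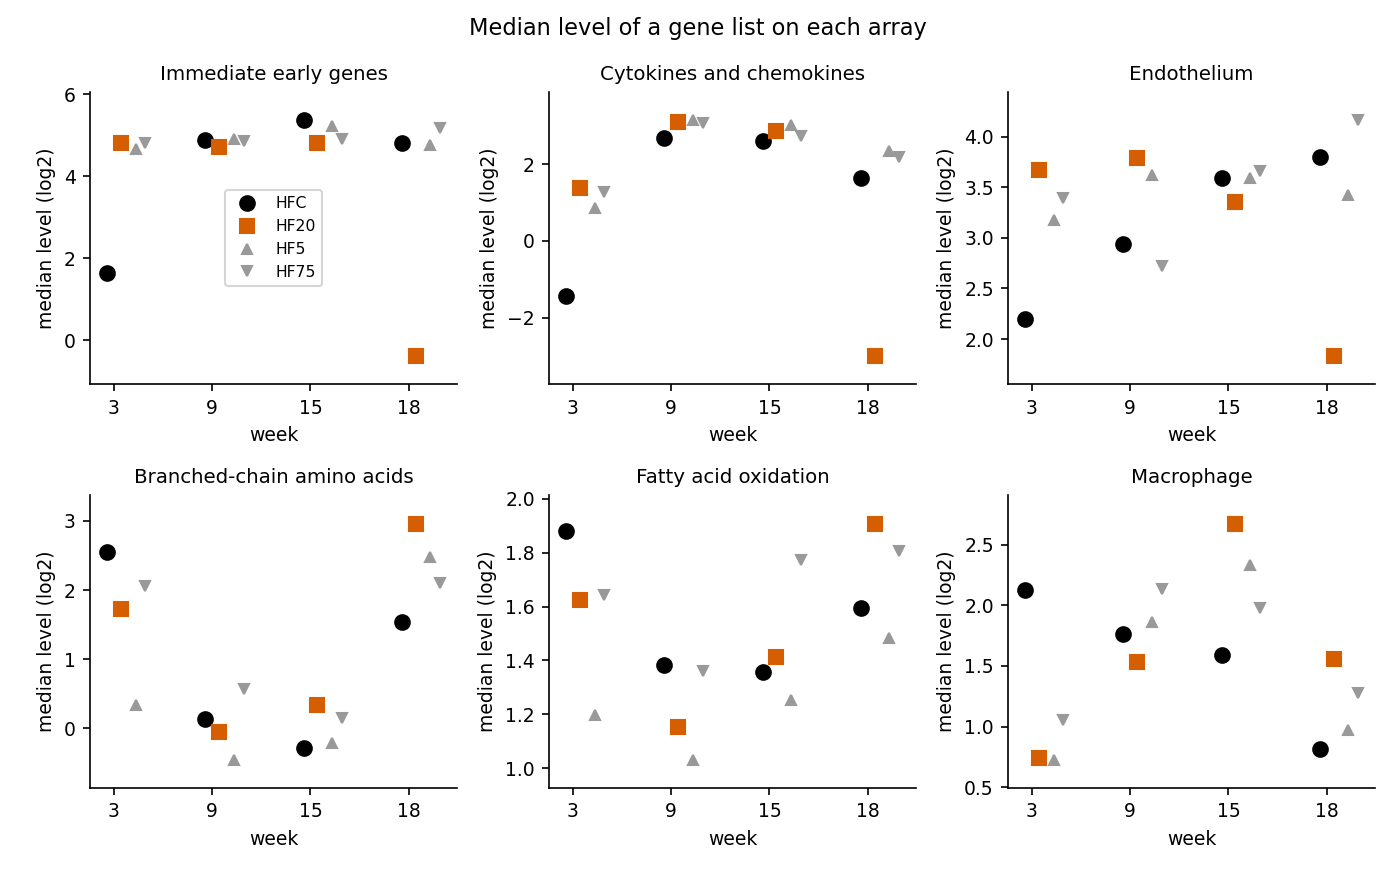
Median level (log2) of 6 gene lists on the HFC, HF20, HF5 and HF75 arrays of weeks 3, 9, 15 and 18, 1 point per array. The HFC array of week 3 and the HF20 array of week 18 lie lowest for immediate early, cytokine and endothelium genes, and highest for branched-chain amino acid and fatty acid oxidation genes.

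Genes of the endothelium followed the immediate early genes, and genes of adipocyte metabolism ran against them. The endothelium list (14 genes) had median differences of 1.997, 0.35, -0.10 and -2.05, with Cdh5, the adhesion molecule of endothelial junctions, at 2.92 and 2.61 on the low arrays and at 4.41 to 5.51 on the others. All 13 genes of branched-chain amino acid breakdown were lower in HF20 at week 3 and higher at week 18, as were 36.7% of all probes. The list medians were -1.41, -0.12, 0.37 and 1.95, and 0.18 over the 4 weeks. Mccc1, a subunit of the leucine-degrading methylcrotonyl-CoA carboxylase, was at 5.33, 2.36, 1.92 and 3.15 on the HFC arrays and at 3.41, 1.75, 2.50 and 5.33 on the HF20 arrays, so its highest level in each group came from the array that stood apart. Fatty acid oxidation genes (14 tested) had medians of -1.09, -0.06, 0.08 and 1.34, and respiratory chain and ATP synthase genes (20 tested) of -0.98, -0.23, 0.21 and 1.06.

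Of the adipokine and fat pad genes named here, none passed the test. Lep, the leptin gene, was at 3.06, 0.50, -0.37 and 2.004 on the HFC arrays of weeks 3, 9, 15 and 18 and at 1.15, -0.25, -0.08 and 3.85 on the HF20 arrays, so HF20 was lower in the earlier weeks and higher in the later ones. Its mean difference was -0.13 ± 0.63 (SE, n = 4 pairs, adjusted p = 0.99994 by limma). Adipoq, the adiponectin gene, and Fasn, the fatty acid synthase gene, were saturated on 3 and 4 of the 8 arrays, all of weeks 3 and 18, where their differences are not given. At weeks 9 and 15 Adipoq differed by -0.65 and 0.28 and Fasn by -1.07 and 1.43. Mest, a marker of fat pad expansion, was lower by 1.76, 1.06 and 0.42 in the first 3 of these weeks and higher by 0.77 at week 18, with a mean of -0.62 ± 0.47 (SE), and Sfrp5, a secreted Wnt antagonist, had a mean of 0.17 ± 0.33 (SE).

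The lists around them gave medians over the 4 weeks of -0.06 for adipocyte identity (0 of 18 genes of one sign in all 4 weeks) and -0.04 for lipogenesis (0 of 16). Lipolysis and lipid droplets had 0.01 (0 of 15), fat pad expansion -0.15 (0 of 6) and insulin signalling 0.05 (0 of 14). Thermogenic genes had 0.01, with 1 of 7 lower in all 4 weeks, where 2.91% of all probes were. The weekly medians of these lists ran from below 0 at week 3 to above 0 at week 18. They went from -0.41 to 0.48 for adipocyte identity, -0.95 to 0.75 for lipogenesis and -0.74 to 1.21 for lipolysis. For expansion they went from -1.14 to 0.94, for insulin signalling from -0.71 to 0.41 and for thermogenic genes from -1.31 to 0.83. Under quantile scaling the adipocyte and lipogenesis medians were 0.07 and 0.07. Of the adipocyte list 8 genes were saturated on the HFC array of week 3, so their differences at that week are truncated. Cholesterol synthesis and uptake genes had a median of -0.10, with -0.89 at week 3 and 0.27 to 0.37 afterwards.

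Macrophage genes were lower in HF20 at week 3 and higher at week 15. The list of 17 had medians of -1.40, -0.35, 0.85 and 0.29, and -0.11 over the 4 weeks and 0.004 without the arrays that stood apart. Its level at week 3 was 2.13 on the HFC array, which stood apart, and 0.74, 0.73 and 1.05 on the HF20, HF5 and HF75 arrays. Adgre1, which encodes the macrophage marker F4/80, was at 3.24, 2.82, 2.60 and 1.29 on the HFC arrays and at 0.95, 2.16, 3.73 and 2.66 on the HF20 arrays. HF20 was thus below HFC in the first 2 of these weeks and above it in the last 2, and the mean was -0.11 ± 0.67 (SE, n = 4 pairs). Cd163, a scavenger receptor of resident macrophages, went the same way, with -1.97, -1.79, 0.85 and 2.18.

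The medians of other immune lists averaged unlike weeks. Interferon stimulated genes had 0.28, 0.14, 0.02 and -2.17 in the 4 weeks, lipid associated macrophage genes 1.05, -0.34, 0.05 and -1.36, and complement genes -1.19, -0.29, 0.60 and 0.56. Antigen presentation genes had 0.37, 0.05, 0.13 and 0.06 and acute phase genes -0.0047, 0.14, 0.28 and -0.73. Over the 4 weeks the medians were -0.18 for lipid associated macrophage genes, -0.19 for acute phase proteins, -0.03 for complement (0.07 under quantile scaling), -0.44 for interferon stimulated genes (0.31 without the arrays that stood apart) and 0.08 for antigen presentation. Lcn2, an acute phase lipocalin that binds bacterial siderophores, was higher in all 4 weeks (1.97% of all probes), by 3.67, 0.56, 2.27 and 0.05. It had the smallest p of its list (unadjusted p = 0.047 by limma, adjusted p = 0.99994).

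Cell cycle genes had more members of one direction in all 4 weeks than any other of the 42 lists. Of 21 genes of mitosis and DNA replication 9 were lower in HF20 in all 4 weeks, where 2.91% of all probes were, and 0 were higher in all 4. The medians were -0.21, -0.81, -0.25 and -0.44, and -0.39 over the 4 weeks (all probes tested: -0.03), -0.25 without the arrays that stood apart and -0.55 in weeks 9 and 15 alone. In these 2 weeks 13 of the 21 were lower in both, where 19.8% of all probes were, and 0 were higher in both, where 17.9% of all probes were. Of the 21, 2 had an unadjusted p under 0.05 by limma, where 285 of all 28255 probes had, and 0 passed the adjusted test. The list level on the HF5 and HF75 arrays was below HFC at weeks 15 and 18 and above it at week 9. It was -1.41, -1.25, -1.27 and -2.05 on the HFC arrays in week order. The HF5 arrays had -1.23, -0.65, -1.84 and -2.15 and the HF75 arrays -1.91, -1.10, -2.42 and -2.28.

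Aurkb, a kinase of chromosome segregation, was at -3.26, -3.43, -3.96 and -3.29 on the HFC arrays and at -4.64, -6.22, -4.26 and -4.76 on the HF20 arrays, of which 3 were well above background. Its groups did not overlap, as was so for 0.234% of all probes in the lower direction. Its difference was -1.49 ± 0.45 (SE, n = 4 pairs, unadjusted p = 0.017, adjusted p = 0.99994 by limma). Ccnb1, the mitotic cyclin B1, was lower by 1.54, 1.08, 0.56 and 0.02, and Mcm6, a subunit of the replicative helicase, by 0.42, 1.02, 0.26 and 1.59. Mki67, the proliferation marker Ki-67, was not among the 9, with 0.63, -0.44, 0.01 and -1.45 and a mean of -0.31 ± 0.41 (SE).

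**Figure D3:**
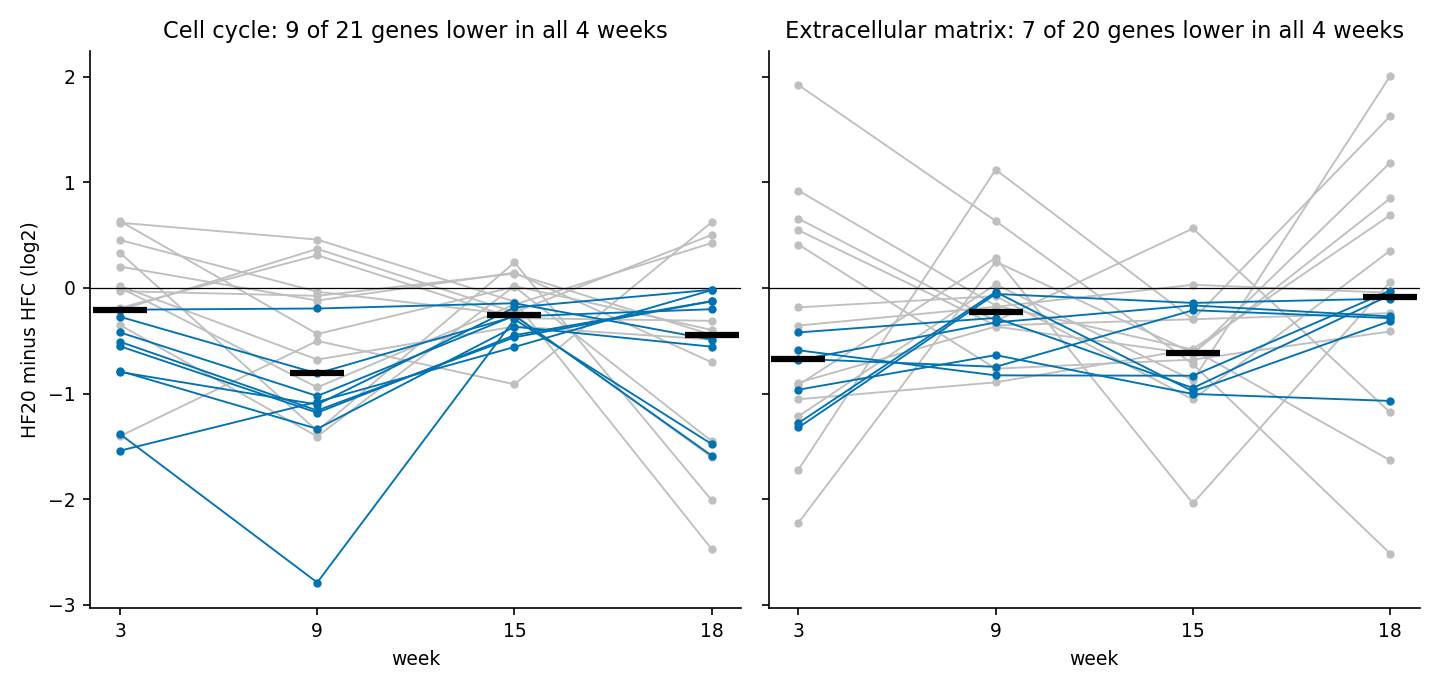
HF20 minus HFC (log2) at weeks 3, 9, 15 and 18 for 21 cell cycle genes (left) and 20 extracellular matrix genes (right), 1 line per gene, with genes lower in all 4 weeks in blue and the median of the list as a black bar. The medians lie below 0 at every week, and 9 and 7 genes are blue.

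Extracellular matrix genes were likewise mostly lower in HF20. Of 20 genes 7 were lower in all 4 weeks (2.91% of all probes) and 0 higher (1.97% of all probes), with medians of -0.68, -0.23, -0.62 and -0.09, -0.36 over the 4 weeks and -0.27 without the arrays that stood apart. Of the 20, 13 were lower in both week 9 and week 15 (19.8% of all probes) and 0 higher in both (17.9% of all probes). Among the high fat groups the list level was highest on the HFC array in every week, so a lower level was not particular to HF20. In week order it was 3.69, 4.45, 4.02 and 2.88 on the HFC arrays. It was 3.46, 3.47, 3.56 and 2.62 on the HF5 arrays and 2.76, 3.74, 2.88 and 2.67 on the HF75 arrays. Col1a1, the alpha 1 chain of type I collagen, was at 5.28, 5.90, 5.37 and 3.78 on the HFC arrays and at 4.31, 5.27, 4.36 and 2.71 on the HF20 arrays. It was lower by 0.64 to 1.07 in each week although the groups overlapped, and its difference was -0.92 ± 0.27 (SE, n = 4 pairs, unadjusted p = 0.015, adjusted p = 0.99994 by limma). Col6a3, a chain of type VI collagen, was lower by 0.59, 0.83, 0.83 and 0.03. In contrast Col6a1 was higher by 2.01 and Fn1, the fibronectin gene, by 1.63 at week 18. Col3a1 was also among the 7 but was saturated on 4 of the 8 arrays.

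None of the clock genes passed the adjusted test. Of 16 clock genes 4 (Per2, Dbp, Tef and Hlf) were lower in all 4 weeks, where 2.91% of all probes were, and 1 (Arntl) higher, where 1.97% were, with a median of -0.35 and weekly medians of 0.11, -0.09, -0.46 and -0.89. Dbp, a clock-driven transcription factor, was at 5.35, 5.28, 4.11 and 4.91 on the HFC arrays and at 4.49, 4.34, 3.53 and 3.06 on the HF20 arrays, a difference of -1.05 ± 0.33 (SE, n = 4 pairs, unadjusted p = 0.019, adjusted p = 0.99994 by limma). Per2, a repressor of the clock loop, was lower by 0.80, 1.16, 1.28 and 0.05, and its groups did not overlap (0.234% of all probes lower). Arntl, which encodes the activator BMAL1 that peaks opposite to Dbp and Per2, was higher by 0.25, 1.15, 0.64 and 1.06. The hour of killing of each group is not given in the sources used here. Of 14 heat shock and endoplasmic reticulum stress genes 2 were lower in all 4 weeks (2.91% of all probes), Hsph1 and Hsp90aa1.

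Of the genes named for the smallest p among probes of one sign in all 4 weeks, a difference of at least 1 and a signal well above background on at least 6 arrays (86 probes higher and 63 lower), only Cd300ld and Aim2 did not overlap between the groups. Over all probes tested, 0.156% were higher in HF20 without overlap. Cd300ld, a receptor of myeloid cells (chromosome 11), was at -3.34, -3.45, -3.20 and -4.98 on the HFC arrays of weeks 3, 9, 15 and 18 and at -1.96, -2.71, -1.75 and -1.82 on the HF20 arrays. Its difference was 1.68 ± 0.46 (SE, n = 4 pairs, unadjusted p = 0.011, adjusted p = 0.99994 by limma). Aim2, a cytosolic DNA sensor of the inflammasome (chromosome 1), was at -5.66, -5.47, -6.26 and -6.83 on the HFC arrays, of which 2 were well above background, and at -4.55, -5.05, -4.62 and -5.19 on the HF20 arrays.

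Immunoglobulin heavy chain genes made up 4 of the 10 named genes that were higher. Ighm, the mu constant region (chromosome 12), was at -6.24, -1.54, -0.80 and -2.52 on the HFC arrays and at -4.03, 0.49, -0.71 and 0.08 on the HF20 arrays, so that the groups overlapped and the array of week 3 was the lowest of each. Its difference was 1.73 ± 0.48 (SE, n = 4 pairs). Ighv1-54, Ighv1-77 and Igh-VJ558 had differences of 1.73, 1.65 and 1.42, and heavy chain genes are near-identical copies that probes may not separate. In the list of B and plasma cells 3 of 8 genes were higher in all 4 weeks, where 1.97% of all probes were, namely Ighm, Igj (1.01 ± 0.37, SE), the joining chain of secreted antibodies, and Mzb1 (1.06 ± 0.46, SE), a chaperone of antibody secretion. Ms4a1, a B cell surface marker, had a difference of -0.02 ± 0.57 (SE). The remaining named genes that were higher were Tpm1, a tropomyosin of actin filaments (1.17 ± 0.29, SE), Ptn, the growth factor pleiotrophin (1.06 ± 0.31, SE), and the epididymal genes Lcn6 (2.52 ± 0.69, SE) and Defb42. Defb42 was at -8.62, -4.25, -5.03 and -7.52 on the HFC arrays, of which 2 were well above background, and at -1.75, -3.40, -2.07 and -4.57 on the HF20 arrays.

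Cox18, Mtarc1 and Hsph1 had the smallest p among the named genes that were lower. Cox18, which inserts cytochrome oxidase subunits into the inner membrane (chromosome 5), was at 2.03, 0.76, 0.95 and 0.02 on the HFC arrays and at 0.71, -0.04, -0.61 and -1.43 on the HF20 arrays, with a difference of -1.28 ± 0.29 (SE, n = 4 pairs). It had the smallest p of the named genes (unadjusted p = 0.0047, adjusted p = 0.99994 by limma), and its second probe had the same sign. Mtarc1, a molybdenum enzyme of the mitochondrial outer membrane, differed by -2.003 ± 0.45, and Hsph1, a large heat shock protein that assists Hsp70, by -1.17 ± 0.29 (SE). Hsph1 was at 3.44, 4.33, 3.68 and 3.47 on the HFC arrays and at 1.76, 3.53, 2.64 and 2.32 on the HF20 arrays. Lin9, a subunit of the complex that controls cell cycle transcription, differed by -1.08 ± 0.30 (SE). Lefty1, a Nodal antagonist, Adamts17, a secreted metalloprotease, Lpar3, a lysophosphatidic acid receptor, Akr1e1, an aldo-keto reductase, and Ncan, a chondroitin sulfate proteoglycan, differed by -1.39, -1.21, -1.09, -1.57 and -1.86. Svs5, a seminal vesicle protein, differed by -4.35 ± 1.15 (SE). It was at 6.92 and saturated on the HFC array of week 18, and at -4.57 to -0.36 on the other HFC arrays. The HF20 arrays lay at -7.61 to -2.05. Svs5 was also high on the LFC arrays of weeks 9 and 18 (6.29 and 3.51), HF5 of week 18 (6.87) and HF75 of week 9 (4.23). The other HF5 and HF75 arrays with a value lay at -7.65 to -3.12.

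**Figure D4:**
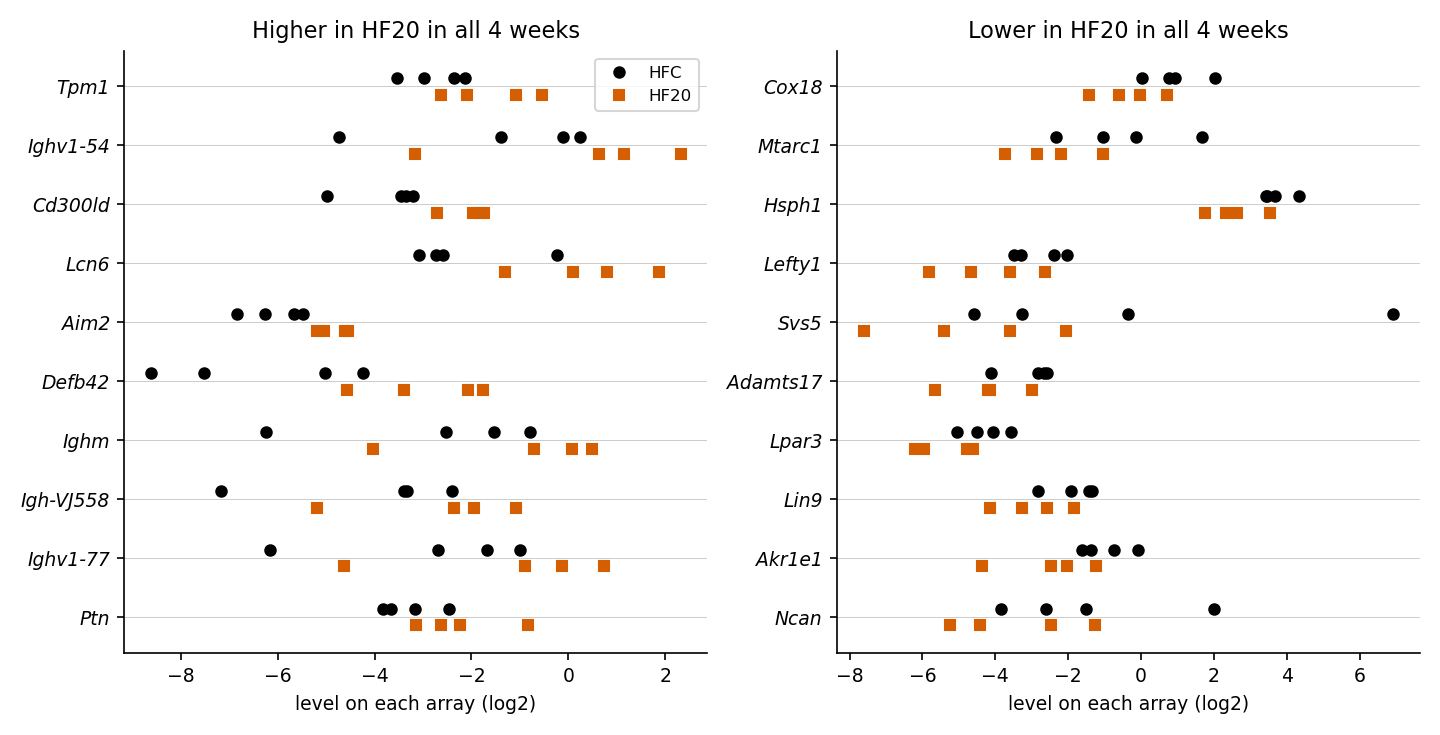
Level (log2) on the 4 HFC and 4 HF20 arrays of the 10 genes named as higher (left) and the 10 named as lower (right) in HF20 in all 4 weeks. The groups overlap for all of them except Cd300ld and Aim2.

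Genes of neighbouring tissue differed widely between arrays. The median level of the epididymis list (15 genes) was 0.07 and -1.32 on the HF20 arrays of weeks 3 and 15, -5.63 and -7.91 on those of weeks 9 and 18, and -8.56 to -4.45 on the 4 HFC arrays, with 15, 8, 14 and 6 of its 15 genes well above background on the HF20 arrays in week order and 3, 7, 13 and 7 on the HFC arrays. On the LFC arrays the list lay at 0.21, 2.04, -5.94 and -7.76 in week order, the first from the array with 16431 outlier spots. On the HF5 and HF75 arrays it lay at -6.31 to -1.86. Crisp1, a sperm-coating protein of the epididymis, was at 4.74 on the HF20 array of week 3 and -8.47 on the HFC array. Defb20, an epididymal beta-defensin, was well above background on all 4 HF20 arrays and on no HFC array, so that it passed the filter through HF20 alone. For that reason no fold between the groups is given for it. Defb20, itself a member of the epididymis list, was at 0.10, -4.99, -1.32 and -5.48 on the HF20 arrays in week order. Lcn6 and Defb42 belong to the same tissue, and its part in the differences of other genes was not tested.

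The mesothelium list (7 genes) lay at -3.26 on the HF20 array of week 3 and at 0.77 to 1.06 on the other HF20 arrays. B cell genes had a median difference of 0.33, T cell genes of 0.15, mast cell genes of -0.10, neutrophil genes of -0.08 (0.05 under quantile scaling) and red blood cell genes of 0.05, with neutrophil and red cell genes 3.44 and 2.93 higher in HF20 at week 15 and 2.29 and 1.51 lower at week 18. Skeletal muscle genes had a median of 0.43, testis germ cell genes of 0.16, nerve and brain genes of 0.22, visceral depot genes of -0.21, subcutaneous depot genes of -0.18, liver genes of -0.64 and exocrine pancreas genes of -1.11, the last 2 from 4 and 2 tested genes. Their weekly medians lay far apart, such as 2.02, 5.14, -4.24 and -2.84 for testis genes, -0.66, 0.01, 1.27 and 1.61 for muscle genes, 1.27, -0.06, 0.17 and -0.13 for T cell genes and -1.10, 0.55, -0.79 and -1.47 for liver genes. Cpa1, a pancreatic protease, and Apoa2, an apolipoprotein of liver, were lower in all 4 weeks (2.91% of all probes), by 1.15 to 1.60 and by 0.75 to 2.69. Each was well above background on only 4 of the 8 arrays.

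**Figure D5:**
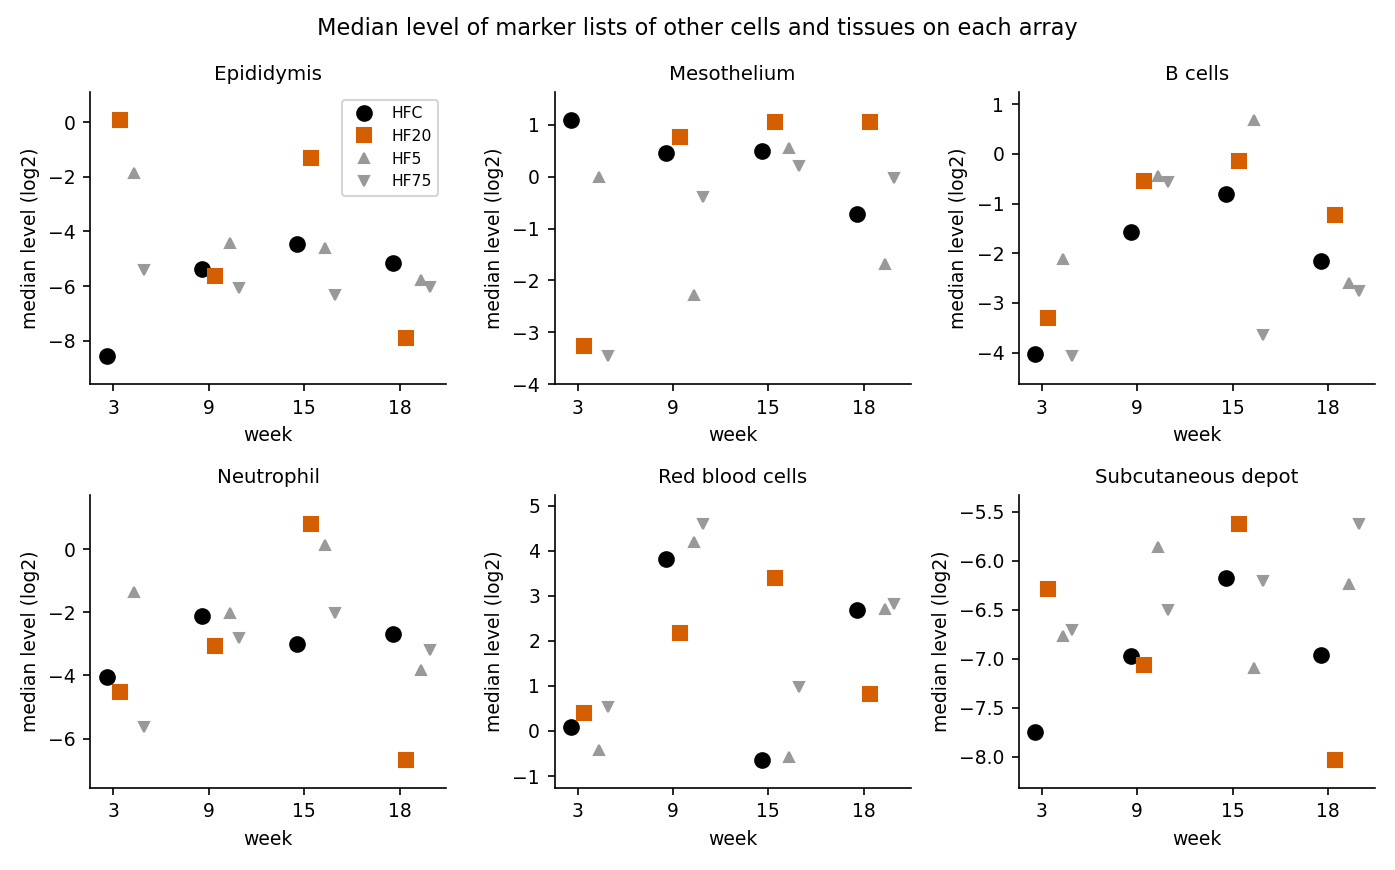
Median level (log2) of 6 marker lists of other cells and tissues on the HFC, HF20, HF5 and HF75 arrays of weeks 3, 9, 15 and 18, 1 point per array. Epididymis genes are highest on the HF20 arrays of weeks 3 and 15, and the subcutaneous depot list stays at -8.03 to -5.62 on the HFC and HF20 arrays.

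No gene passed the test of whether the difference between HF20 and HFC changed with time. The mean of weeks 15 and 18 minus the mean of weeks 3 and 9 had an unadjusted p under 0.05 for 4321 of 28253 probes (15.3%), and 0 passed the adjusted test, whose smallest p was 0.308. Of these probes 1196 had positive and 3125 negative values, but 2423 and 2031 when arrays were scaled to their median, which moved the median over all probes from -0.10 to 0.37. Lep (2.40, adjusted p = 0.314 by limma), Slc2a4, the insulin-dependent glucose transporter (2.24), Adgre1 (2.73, adjusted p = 0.308 by limma) and Cd163 (3.39) had positive values of this contrast. The HF20 array of week 18 and the HFC array of week 3, which stood apart, enter this contrast with the same sign, and their part in it and the age of the mice cannot be told apart.

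Against the other doses HF20 gave no call either. Over 16 arrays of the 4 high fat groups, 0 probes passed the adjusted test for HF20 against HF5 (5 µg) and 0 for HF20 against HF75 (75 µg), with 1674 (5.92%) and 1468 (5.2%) at an unadjusted p under 0.05. Of these 1026 were higher and 648 lower against HF5 (747 and 741 with scaling to the median), and 1054 higher and 414 lower against HF75 (489 and 922). Cd300ld and Aim2 were named for high values on these same HF20 arrays, so their differences from the other doses are not independent of that choice. Cd300ld differed between HF20 and HF5 by 1.88 ± 0.52 and between HF20 and HF75 by 1.72 ± 0.52 (SE, adjusted p = 0.74 and 0.895 by limma). Its level on the HF5 and HF75 arrays, -5.46 to -3.17, lay below all 4 HF20 arrays. Aim2 differed by 1.48 and 1.32 ± 0.48 (SE), and 1 HF75 array (-4.24) lay above all 4 HF20 arrays. Lep differed by 1.56 ± 0.68 from HF5 and 1.04 ± 0.68 from HF75 (SE). Fos differed by -1.90 ± 1.28 and -2.17 ± 1.28 (SE), with the HF20 array of week 18 at -2.55 and the HF5 and HF75 arrays at 4.06 to 5.74.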

How the data were processed

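Total RNA was labelled with Cy3 and hybridised to Agilent one-colour arrays. The deposited scanner files hold intensity values, which the authors' scanner software, Feature Extraction (10.5.1.1 per the file headers, 9.1 in the submitters' processing notes), had background-subtracted within each array, on annotation of build mm9. Processed signals of spots that are not controls were log2 transformed, the 75th percentile of the array was subtracted, outlier spots were set to missing and spots of a probe were averaged, which gave 40628 probes. Probes well above background on 4 or more of the 8 arrays were tested. HF20 minus HFC was tested by limma 3.58.1 in R 4.3.3, two-sided, with week as a block, 3 residual degrees of freedom before moderation and Benjamini-Hochberg adjustment. The fit was tested on simulated data with independent noise on each probe and array. Those data held no array that stood apart, so they cannot show how the fit behaves on these arrays. HF20 was tested against HF5 and HF75 on 16 arrays. Tables and plots were made with pandas 2.3.3, numpy 2.4.6 and matplotlib 3.10.9 under Python 3.11.15. The number of arrays limits the precision. The p-values of HF20 against HFC measure only the spread between the 4 pairs, moderated over the probes. Those against HF5 and HF75 rest on the spread among the 16 arrays, and those of late against early weeks on the 4 differences.

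The authors' deposited table holds log2 values relative to the LFC array of each week after normalisation in GeneSpring GX, in which HF20 minus HFC correlated with the values used here at r = 0.9945 to 0.9992. It was used as an alternative, and 27 of its columns of other arrays were not used here. The weeks in the labels pair the arrays. Within each week both arrays were scanned on the same day and lay on different slides, so scan day and week cannot be told apart.

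Genes were named by a rule: per direction the 10 smallest p among probes of one sign in all 4 weeks, a difference of at least 1 log2 and a signal well above background on at least 6 arrays, with 1 probe per gene symbol, because 0 probes passed the adjusted test. The gene of smallest p in each list and Lep, Adipoq, Mest, Sfrp5, Adgre1, Fasn, Fos and Mki67 were added. The comparison, the 42 lists (517 genes, 515 on the array) and the rule were chosen with earlier results of these data known. A list gene was represented by its brightest tested probe. Symbols came from a table of build GRCm38.p6, used for names, through which 28136 of 40628 probes matched by accession. Alternatives were other scalings and background corrections, filters, weeks, arrays and tests, 21 in all for HF20 against HFC. Values of some list genes are not reported here.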

Additional observations from a re-analysis of the deposited data

Results flagged for a closer look

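In a group of 4 arrays, 1 array was marked where its gap to the nearest other took up nearly the whole range of the group. Of 124 such groups (84 list levels and 40 levels of named genes) 6 were marked, and chance alone marks about 1 in 20. The immediate early list was lowest on the HFC array of week 3, at 1.65 against 4.82 to 5.37, and on the HF20 array of week 18, at -0.385 against 4.72 to 4.82. The mesothelium list was lowest on the HF20 array of week 3, at -3.26 against 0.77 to 1.06. Among named genes, Cd300ld was lowest on the HFC array of week 18 at -4.98, Lcn6 was highest on the HFC array of week 15 at -0.236, and Adamts17 was lowest on the HFC array of week 18 at -4.11. What set these levels was not tested.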

How the results depend on the processing

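The count of 0 probes past the adjusted test of HF20 against HFC held under all 21 alternatives, and the 0 for HF20 against HF5 and against HF75 under the 10 run for each and for the late against the early weeks under the 4 run. The number of probes at an unadjusted p under 0.05 (285) became 27 with normexp, 508 with no filter, 141 with probes well above background on all 8 arrays, 189 with 16 arrays, 439 with week 6 added, 718 with all 6 weeks, 651 with array weights and 116 with no replicate block, that is without pairing by week. A t-test on the 4 weekly differences of each probe gave 406 and 0 after Benjamini-Hochberg adjustment. Leaving out 1 week gave 197 to 829, with 829 without week 3 and 722 without week 18. Weeks 9 and 15 only, an alternative chosen after seeing the data, gave 609. Probes of one sign in every week (1379) became 375 with normexp, 857 with week 6, 543 with week 12, 365 with all 6 weeks, 2756 to 5954 with 1 week left out and 10661 with weeks 9 and 15 only, fewer weeks giving more by construction. The list medians given next are those that moved by more than the SD of the list's 4 weekly medians. With all 6 weeks adipocyte became 0.65, oxidative stress 0.31, acute phase 0.61, subcutaneous -0.84 and brain -0.64. With week 6 acute phase became 0.37, glucocorticoid -0.49, visceral 0.54 and brain -0.68, and with week 12 acute phase 0.41 and subcutaneous -0.89. With weeks 9 and 15 only glucocorticoid became -0.037 and visceral 0.27, and antigen presentation was 0.25 without the HFC week 3 and HF20 week 18 arrays and no week block. Leaving out 1 week gave -0.078 to 0.19 for oxidative stress and -0.32 to -0.058 for glucocorticoid. Lists with widely spread weeks also moved, but by less than their SD. Among them, with all 6 weeks immediate early became -1.83, cytokine -1.53, branched-chain amino acid 1.115, lipogenesis 0.71 and fatty acid oxidation 0.67. For these lists, leaving out 1 week gave -1.76 to 1.68 for cytokine and -1.55 to 0.75 for immediate early. Of the named genes only Ptn changed sign, to -0.34 with all 6 weeks. The cell cycle and extracellular matrix medians stayed below 0 under all 21 alternatives (-0.61 to -0.25 and -0.53 to -0.27). The cause of these moves was not tested. Saturation and the floor of the scanner truncate the largest differences.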

Other observations

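The lists not described above had medians of HF20 minus HFC of -0.27 to 0.22, where all probes had -0.03. Oxidative stress defence genes (14 tested) had 0.04. Among them Hmox1, which degrades haem, was higher in all 4 weeks (1.97% of all probes), by 0.30, 0.62, 0.07 and 2.19. Xenobiotic metabolism genes (19 tested) had 0.22, with 0 of one sign in all 4 weeks and weekly medians of -0.34, 0.28, 0.05 and 0.57. Glucocorticoid activation and target genes (9 tested) had -0.24, adipose progenitor genes (10 tested) -0.27 and Wnt antagonists and ligands (12 tested) 0.11. Their weekly medians were 0.09, -0.28, -0.06 and -0.12, then 0.09, -0.30, -0.17 and -0.62, and 0.17, 0.11, -0.30 and 0.53. Of the progenitor genes 2 were lower in all 4 weeks (2.91% of all probes), among them Thy1, a surface marker of stromal cells, by 0.85, 1.04, 0.02 and 0.80.

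In 33 of the 42 lists the smallest unadjusted p was 0.0557 to 0.868. The HF20 arrays of weeks 6 and 12 entered only the alternatives that added those weeks. They had Fos at -0.37 and -1.58 and Il6 at -7.06 and -5.68, while the HFC arrays of those weeks had Fos at 5.76 and 4.23.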
